A study of Mus musculus with 12 samples.

Results

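The genes described here encode neuronal filaments and microtubule proteins: the neurofilament subunits Nefl, Nefm and Nefh, the related subunit Ina, the microtubule-associated proteins Mapt, Map2, Map1a and Map1b, the tubulin Tubb3 and the stathmin Stmn1. They were picked out of the table by symbol, from a list drawn up with earlier results of these data known, and make up 10 of the 15759 entries of a table of normalized counts. All 10 had a mean of at least 10 normalized counts and were among the 15369 genes tested. RNA with poly-A tails was sequenced from whole cortex and whole cerebellum of 12-week-old C57BL/6J mice. The SCA1 KI mice (Atxn1 154Q/2Q) model spinocerebellar ataxia type 1, with an expanded glutamine tract knocked into the mouse Atxn1 gene under its own regulators, so that all cells using Atxn1 carry it. The controls were WT littermates. By the paper's account the cerebellar libraries come from an earlier publication of the same laboratory and were analysed again beside the cortex, so region cannot be told apart from data set. The labels describe male mice, the methods of the paper animals of both sexes. There were 3 libraries for each genotype in each region, 4 groups in all: B, C and D (WT) and A, E and F (SCA1 KI) from cortex, and 2, 4 and 6 (WT) and 1, 3 and 5 (SCA1 KI) from cerebellum. The labels call them replicates without naming the animal behind each, so p-values measure the spread between these libraries.

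Between 29520855 and 51311309 reads per library lay on genes. Cortex SCA1 KI library A differed most from the other libraries of its group, with a chi-square per gene of 32.8 to 36.0. Cerebellum WT library 2, at 21.1 to 26.7, lay near cortex WT library D, at 21.2 to 22.6. Pairs of one group without these libraries had 7.43 to 18.1. The labelled regions matched their markers: the 7 genes of cerebellar granule cells summed to between 1601 and 2548 normalized counts in the cortex libraries and between 130622 and 185748 in the cerebellum libraries. Atxn1, the targeted gene, had 8147, 7443 and 6521 normalized counts in the WT cortex and 4604, 7249 and 6267 in the SCA1 KI cortex, with 3737, 3628 and 3671 in the WT cerebellum and 3812, 3717 and 4138 in the SCA1 KI cerebellum. Its log2 fold change (LFC, SCA1 KI over WT) was −0.31 (SE 0.13, limma adjusted p = 0.132) in cortex and 0.08 (SE 0.13, limma adjusted p = 0.837) in cerebellum, and counts per gene do not read the length of the repeat.

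Neurofilaments are the intermediate filaments of neurons. A light, a medium and a heavy chain, encoded by Nefl, Nefm and Nefh, assemble together with alpha-internexin, encoded by Ina, into cables that fill large axons and set their calibre. They are most abundant in large projection neurons with myelinated axons, such as layer 5 pyramidal cells of the cortex and neurons of the cerebellar nuclei and brainstem. Microtubules are hollow polymers of alpha and beta tubulin. Tau, encoded by Mapt, binds them mostly in axons, MAP2 mostly in dendrites, MAP1B mostly in growing and MAP1A mostly in mature neurons, while stathmin 1 holds tubulin dimers and favours disassembly. Tubb3 encodes the beta tubulin specific to neurons.

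All 10 genes were abundant, and their order differed between the regions. Levels of different genes were set side by side as normalized counts per kilobase of annotated exon. In the WT cortex Stmn1 (7155 ± 758, SD, n = 3), Map1a (6375 ± 494) and Tubb3 (6108 ± 103) led, and each overlapped the next within its spread. Nefl followed at 4674 ± 341, then Map1b at 3334 ± 246 and Mapt at 3262 ± 251, which overlapped, and Map2 at 2638 ± 79.4. Nefm (2050 ± 311) and Ina (1986 ± 181) overlapped, and Nefh was lowest at 778 ± 151. In the WT cerebellum Tubb3 led at 4259 ± 177 normalized counts per kilobase, Map1a (3280 ± 232), Nefl (2823 ± 639) and Mapt (2801 ± 88.0) came next with overlapping spreads, and Map2 was lowest at 1212 ± 97.1. Stmn1, the highest in the WT cortex, stood at rank 7 of 10 in the WT cerebellum with 2006 ± 55.4.

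Between the WT regions 7 of the 10 genes were higher in cortex and 1, Nefh, was lower, where a call required a limma adjusted p under 0.05 and an LFC beyond 0.25 in size. Of all tested genes 61.7% passed in this comparison, 31.0% higher and 30.7% lower in cortex. Region and data set cannot be told apart in these differences, in the orders above or in the ratios between subunits. Stmn1 differed most, by an LFC of 1.83 (SE 0.11, limma adjusted p = 1.20e-08), from 3973, 3828 and 3766 normalized counts in cerebellum to 12397, 13568 and 15292 in cortex. Map2 (LFC 1.13), Map1a (0.96), Nefl (0.75), Tubb3 (0.52) and Map1b (0.50) were also higher in cortex, each without overlap between the groups. Nefm was higher as well (LFC 0.48, SE 0.15, limma adjusted p = 0.0132), although its libraries overlapped, and it did not pass without cerebellum WT library 4 (LFC 0.31, limma adjusted p = 0.0671) or cortex WT library C (LFC 0.38, limma adjusted p = 0.0637). The heavy chain went the other way. Nefh had 3148, 3687 and 2483 normalized counts in the WT cortex against 8269, 5789 and 6621 in the WT cerebellum, an LFC of −1.15 (SE 0.14, limma adjusted p = 7.78e-06). The WT libraries of the regions did not overlap for 9 of the 10 genes, 7 higher and 2 lower in cortex, against 69.9% of all tested genes (35.1% higher and 34.8% lower). Mapt (LFC 0.22, limma adjusted p = 0.0163) and Ina (LFC −0.22, limma adjusted p = 0.0185) stayed under the limit on the fold.

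**Figure D1:**
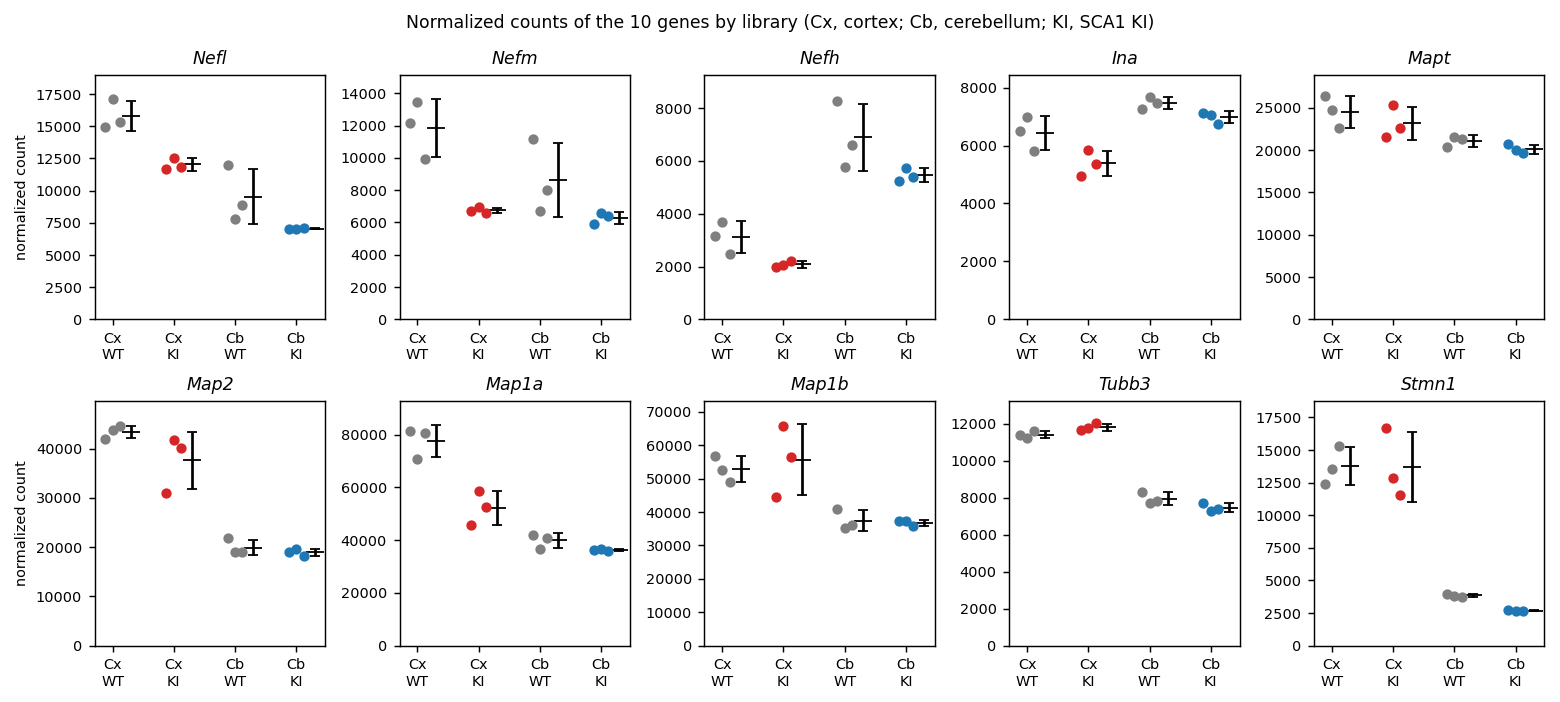
Normalized counts (vertical axis, from 0) of the 10 genes in each of the 12 libraries, with WT in grey, SCA1 KI cortex in red and SCA1 KI cerebellum in blue; the black bar beside each group is the mean and SD of its 3 libraries. The 3 neurofilament chains and Map1a lay lower in all SCA1 KI than in all WT cortex libraries, and Stmn1 was separated by genotype in the cerebellum but not in the cortex.

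In the cortex, SCA1 KI mice had less RNA of all 3 neurofilament chains, of Ina and of Map1a, and the other 5 genes did not pass the test. Nefm fell by 42.6%, Map1a fell by 32.8%, Nefh fell by 32.2%, Nefl fell by 23.7% and Ina fell by 16.3%. Of all tested genes 10.8% were downregulated and 4.82% upregulated in this comparison (15.6% in either direction), beside 5 and 0 of these 10. The count of downregulated genes was 3 without library A, B or F and 2 without library C. No gene of the 10 was upregulated at an unadjusted p under 0.05, nor by edgeR or DESeq2 (0 in each). The median LFC of the 10 genes was −0.24, and that of all tested genes −0.0028. These are whole-tissue libraries, in which fewer neurons of a kind and less RNA per neuron cannot be told apart.

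Nefm, the medium chain, had 12167, 13472 and 9914 normalized counts in the WT libraries B, C and D and 6702, 6938 and 6603 in the SCA1 KI libraries A, E and F. The groups did not overlap, and the WT libraries were spread far more widely than the SCA1 KI libraries. The LFC was −0.80 (SE 0.15, limma adjusted p = 0.00281). It passed in each of the 12 fits that left out 1 library, with an LFC between −0.92 and −0.70 and an adjusted p between 2.35e-04 and 0.0172. Nefh, the heavy chain, had 3148, 3687 and 2483 normalized counts in WT and 1973, 2055 and 2216 in SCA1 KI. The SCA1 KI values were all under those of WT, with WT library D nearest to them. The LFC was −0.56 (SE 0.14, limma adjusted p = 0.0137), and without WT library C, the highest of the group, it was −0.43 and did not pass (limma adjusted p = 0.0633).

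Nefl, the light chain on which the others assemble, had 14941, 17108 and 15345 normalized counts in WT and 11677, 12566 and 11865 in SCA1 KI cortex. The groups were well apart. The LFC was −0.39 (SE 0.12, limma adjusted p = 0.0373). This call was near the threshold: in 9 of the 12 fits that left out 1 library, namely any of the 6 cortex libraries or of the 3 SCA1 KI cerebellum libraries, the LFC lay between −0.43 and −0.33 with a limma adjusted p of 0.0535 to 0.135. The Nefl call held without cerebellum WT library 2, 4 or 6 (limma adjusted p = 0.00155, 0.0143 and 0.0496). It also held with the cortex fitted on its own (limma adjusted p = 0.0137). Ina had 6508, 6978 and 5814 normalized counts in WT and 4961, 5829 and 5349 in SCA1 KI. Here the groups met, SCA1 KI library E lying above WT library D. The LFC was −0.26 (SE 0.074, limma adjusted p = 0.0299). It did not pass without any of libraries A, B, C or F (LFC −0.25 to −0.20, limma adjusted p = 0.0678 to 0.121), nor with the cortex fitted on its own (limma adjusted p = 0.121) or the dependence on transcript length and GC taken out (LFC −0.20, limma adjusted p = 0.115), and edgeR gave an LFC of −0.24, inside the limit.

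Nefl and Nefm are neighbours on opposite strands of chromosome 14 (GRCm38, Nefl at 68083863 to 68089095 on the plus strand and Nefm at 68082590 to 68124846 on the minus strand). Their annotated exons share 1108 bases, 32.8% of those of Nefl and 19.2% of those of Nefm. Whether the authors counted by strand is not given in the sources used here, so reads on the shared stretch may have been assigned to either gene or to none. Nefh, at 4938754 to 4948064 on the minus strand of chromosome 11, shares no exon bases with another gene. Ina, at 47014698 to 47025327 on the plus strand of chromosome 19, shares 14.1% of its exon bases with Nt5c2 on the other strand.

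Map1a was the most clearly reduced of the microtubule genes. It had 81274, 70630 and 80789 normalized counts in the WT cortex and 45800, 58563 and 52475 in the SCA1 KI cortex. Every SCA1 KI library lay below every WT library, library A lowest. The LFC was −0.57 (SE 0.090, limma adjusted p = 8.69e-04), between −0.66 and −0.48 in the 12 fits without 1 library (limma adjusted p between 4.46e-04 and 0.00498), and −0.37 (limma adjusted p = 0.0107) with the dependence on length and GC taken out. Map1b, its relative of the developing brain, had 56811, 52634 and 49038 normalized counts in WT and 44600, 65830 and 56493 in SCA1 KI, where the WT libraries lay inside the range of the SCA1 KI libraries (LFC 0.06, SE 0.12, limma adjusted p = 0.772).

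Map2, the dendritic protein, had 41954, 43731 and 44501 normalized counts in the WT cortex and 31026, 41808 and 40092 in the SCA1 KI cortex. The groups did not overlap, but SCA1 KI library E lay just below the lowest WT library, and the LFC of −0.22 (SE 0.098) did not pass (limma adjusted p = 0.155), with −0.08 without library A (limma adjusted p = 0.485). Mapt, the tau gene, had 26351, 24766 and 22586 normalized counts in WT and 21532, 25309 and 22649 in SCA1 KI, with overlapping groups and an LFC of −0.09 (SE 0.071, limma adjusted p = 0.461). Tubb3 had 11378, 11235 and 11616 normalized counts in WT and 11665, 11769 and 12020 in SCA1 KI. All its SCA1 KI libraries lay above all WT libraries, by little: the LFC was 0.05 (SE 0.050, limma adjusted p = 0.536). Stmn1 had 12397, 13568 and 15292 normalized counts in WT and 16684, 12889 and 11556 in SCA1 KI. Library A was highest of all, F was lowest of all and E lay inside the WT range (LFC −0.02, SE 0.11, limma adjusted p = 0.939). In all, the groups did not overlap for 6 of the 10 genes in cortex, 5 lower and 1 higher in SCA1 KI, as was so for 30.9% of all tested genes (18.0% lower and 13.0% higher).

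Promoters are shown for Map1a and Ina, which were reduced in the cortex, and for Map1b, which was not, as the 300 bases from 250 before to 50 after the RefSeq start on the gene's strand (GRCm38.p6), with each CpG in capitals. The table of promoters held 5 of the 10 genes (Ina, Map1a, Map1b, Map2 and Tubb3).
Map1a, chr2:121289352-121289651, plus strand: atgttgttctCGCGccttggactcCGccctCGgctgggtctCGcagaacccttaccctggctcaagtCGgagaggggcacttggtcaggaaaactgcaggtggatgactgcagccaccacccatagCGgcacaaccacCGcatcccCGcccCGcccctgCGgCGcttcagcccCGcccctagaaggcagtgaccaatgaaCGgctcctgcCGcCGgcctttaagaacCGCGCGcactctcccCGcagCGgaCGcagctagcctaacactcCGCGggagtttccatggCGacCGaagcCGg
Ina, chr19:47014431-47014730, plus strand: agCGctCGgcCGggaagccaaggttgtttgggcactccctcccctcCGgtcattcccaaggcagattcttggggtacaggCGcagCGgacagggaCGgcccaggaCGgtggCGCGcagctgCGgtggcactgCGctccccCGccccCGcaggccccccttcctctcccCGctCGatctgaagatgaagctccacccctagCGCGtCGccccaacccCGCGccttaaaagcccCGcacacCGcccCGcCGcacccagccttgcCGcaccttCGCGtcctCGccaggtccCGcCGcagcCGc
Map1b, chr13:99516553-99516852, minus strand: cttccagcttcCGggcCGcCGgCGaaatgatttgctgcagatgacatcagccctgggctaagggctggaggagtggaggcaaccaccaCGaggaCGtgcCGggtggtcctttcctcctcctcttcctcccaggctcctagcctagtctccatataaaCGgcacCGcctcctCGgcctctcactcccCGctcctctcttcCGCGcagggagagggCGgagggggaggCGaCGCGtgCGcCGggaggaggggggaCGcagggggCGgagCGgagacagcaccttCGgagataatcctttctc
These promoters are rich in CpG, with 27 in Map1a, 32 in Ina and 23 in Map1b, beside 37 in Map2 and 26 in Tubb3 and a median of 7 over 32851 promoters. Ataxin-1 binds Capicua, a repressor that recognises TGAATGAA and TCAATGAA. Neither octamer occurred on either strand of the 5 promoters, where 2.03% of all promoters hold at least 1, which says only that these letters are not in this window.

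In the cerebellum, Stmn1 was the only one of the 10 genes that passed the test, and it fell by 30.2% in SCA1 KI mice. Of all tested genes 4.44% were downregulated and 0.917% upregulated in this comparison (5.36% in either direction), beside 1 and 0 of these 10. The count of downregulated genes was 0 without library 1, 2, 3 or 5 and 3 without library 4. No gene of the 10 was upregulated at an unadjusted p under 0.05, nor by edgeR or DESeq2 (0 in each), while 4 were downregulated at an unadjusted p under 0.05. The median LFC of the 10 genes was −0.12, and that of all tested genes −0.0049. The groups did not overlap for 6 of the 10 genes, all lower in SCA1 KI (Nefl, Nefm, Nefh, Ina, Map1a and Stmn1, against 31.8% of all tested genes, 17.5% lower and 14.3% higher).

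Stmn1 had 3973, 3828 and 3766 normalized counts in the WT libraries 2, 4 and 6 and 2720, 2663 and 2690 in the SCA1 KI libraries 1, 3 and 5. Both groups were tight and far apart. The LFC was −0.52 (SE 0.11, limma adjusted p = 0.0155). The size hardly moved when 1 library was left out (LFC −0.54 to −0.50), but without SCA1 KI library 1, 3 or 5 or WT library 2 the limma adjusted p lay between 0.0539 and 0.0608. Stmn1 lies at 134468320 to 134473843 on the plus strand of chromosome 4 and shares 3.43% of its exon bases with Gm23634 on the same strand.

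The 3 neurofilament chains were lower in every SCA1 KI than in every WT cerebellum library and did not pass the test. Nefl had 11959, 7799 and 8866 normalized counts in WT and 6987, 7027 and 7069 in SCA1 KI (LFC −0.42, SE 0.12, limma adjusted p = 0.0605). Nefm had 11173, 6727 and 8027 in WT and 5878, 6599 and 6396 in SCA1 KI (LFC −0.43, SE 0.15, limma adjusted p = 0.139). Nefh had 8269, 5789 and 6621 in WT and 5256, 5743 and 5405 in SCA1 KI (LFC −0.32, SE 0.14, limma adjusted p = 0.246). In each of the 3, WT library 2 was the highest by far and WT library 4 lay close to the SCA1 KI libraries. Without WT library 2 the LFC of Nefl, Nefm and Nefh was −0.24, −0.23 and −0.18 (limma adjusted p = 0.116, 0.451 and 0.683). Without WT library 4 it was −0.55, −0.59 and −0.44, and Nefl and Nefm passed (limma adjusted p = 0.00803 and 0.0252, and 0.101 for Nefh). On the recovered reads Nefl passed with edgeR (adjusted p = 0.0471) and with DESeq2 (adjusted p = 0.00862), and Nefm with DESeq2 (adjusted p = 0.0403); over all alternatives the adjusted p ran from 0.00803 to 0.178 for Nefl and from 0.0252 to 0.451 for Nefm.

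The other 6 genes differed less in the cerebellum. Ina had 7250, 7684 and 7474 normalized counts in WT and 7129, 7058 and 6751 in SCA1 KI, without overlap (LFC −0.10, SE 0.074, limma adjusted p = 0.570). Map1a had 42043, 36711 and 40970 in WT and 36313, 36526 and 36004 in SCA1 KI, where WT library 4 lay just above SCA1 KI library 3 (LFC −0.14, SE 0.090, limma adjusted p = 0.504). Groups overlapped for the remaining 4. Tubb3 had an LFC of −0.09, Map2 and Mapt of −0.07 each and Map1b of −0.02, with limma adjusted p between 0.384 and 0.956. Mapt had 20340, 21587 and 21353 normalized counts in WT and 20685, 20069 and 19622 in SCA1 KI. Map2 had 21775, 18983 and 19031 in WT and 18921, 19685 and 18182 in SCA1 KI, with WT library 2 above the rest. Map1b had 41034, 35190 and 36178 in WT and 37347, 37215 and 35777 in SCA1 KI, again with WT library 2 highest. The neuronal tubulin Tubb3 had 8330, 7701 and 7838 in WT and 7734, 7292 and 7370 in SCA1 KI, where SCA1 KI library 1 reached into the WT range.

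**Figure D2:**
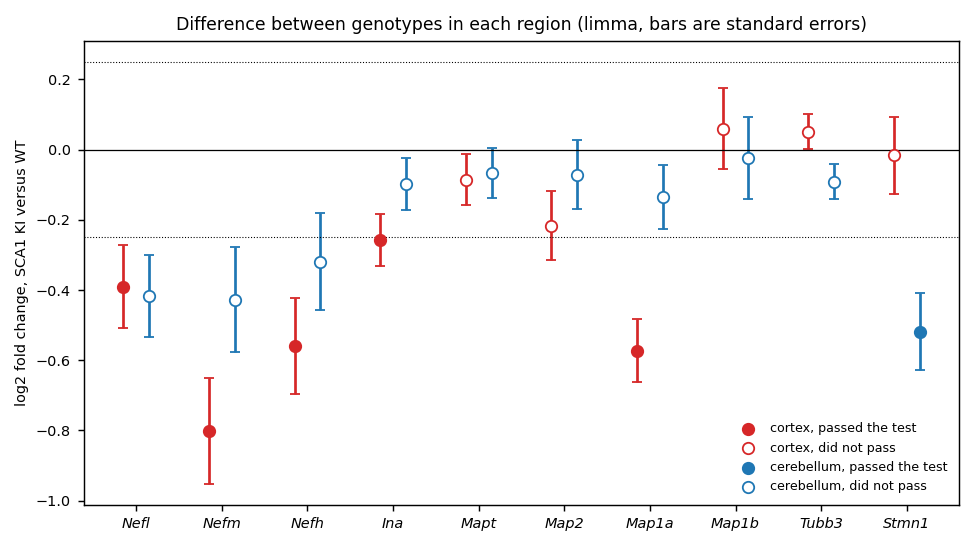
LFC of SCA1 KI over WT (vertical axis, log2) for the 10 genes in cortex (red) and cerebellum (blue) with the standard error from limma as bars; filled points passed the test and dotted lines mark the limit of 0.25 on the LFC. Nefl, Nefm, Nefh, Ina and Map1a were filled in cortex and Stmn1 was filled in cerebellum, from −0.80 for Nefm to −0.26 for Ina.

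Whether the effect of genotype differed between the regions was tested as the cortical minus the cerebellar LFC, each taken within 1 data set. None of the 10 genes passed at a limma adjusted p under 0.05, against 8.15% of all tested genes (4.89% lower and 3.26% higher in cortex). At an unadjusted p under 0.05 there were 2, Map1a and Stmn1. Map1a had a difference of −0.44 (SE 0.13, limma adjusted p = 0.0527). It passed with edgeR (adjusted p = 0.0480), DESeq2 (adjusted p = 0.0147), centring of the libraries on their median (limma adjusted p = 0.0421) and a minimum mean of 100 (limma adjusted p = 0.0451), and without cortex library C (−0.50, limma adjusted p = 0.0430) or E (−0.52, limma adjusted p = 0.0171); the adjusted p over all alternatives ran from 0.0147 to 0.116. Stmn1 had a difference of 0.50 (SE 0.16, limma adjusted p = 0.0698). It passed with DESeq2 (adjusted p = 0.0252) and without cortex library D (0.58, limma adjusted p = 0.0442) or F (0.62, limma adjusted p = 0.0210), within a range of 0.0210 to 0.143. The difference for Nefm was −0.37 (SE 0.21, limma adjusted p = 0.346), and −0.58 without cerebellum WT library 2 (limma adjusted p = 0.0426). For Nefl it was 0.03 (SE 0.17, limma adjusted p = 0.950), the cortical and cerebellar LFC being −0.39 and −0.42.

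The proportions of the subunits do not depend on how a library is scaled. All were taken relative to Nefl, and reads on the exon bases it shares with Nefm were not separated. Nefm relative to Nefl stood at 0.814, 0.788 and 0.646 in the WT cortex libraries and at 0.574, 0.552 and 0.557 in the SCA1 KI cortex libraries. All SCA1 KI ratios lay below all WT ratios, a log2 difference of −0.41 (exact permutation test, 2-sided, p = 0.1, the smallest that 3 against 3 libraries allow). In the cerebellum the same ratio was 0.934, 0.862 and 0.905 in WT and 0.841, 0.939 and 0.905 in SCA1 KI, with mixed groups (log2 difference −0.0097, exact permutation p = 0.9). Nefh relative to Nefl was mixed in cortex, 0.162 to 0.216 in WT and 0.164 to 0.187 in SCA1 KI (log2 difference −0.17, exact permutation p = 0.4). In the cerebellum it was 0.691 to 0.747 in WT and 0.752 to 0.817 in SCA1 KI, without overlap (log2 difference 0.10, exact permutation p = 0.1). Ina relative to Nefl overlapped between genotypes in both regions, with log2 differences of 0.13 in cortex and 0.32 in cerebellum (exact permutation p = 0.2 in each), and stood at 0.379 to 0.464 in the cortex libraries, at 0.606 in cerebellum WT library 2 and at 0.843 to 1.02 in the other cerebellum libraries. The regions themselves stood apart for all 3 ratios: the heavy chain was at most 0.216 of the light chain in any cortex library and at least 0.691 in any cerebellum library.

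**Figure D3:**
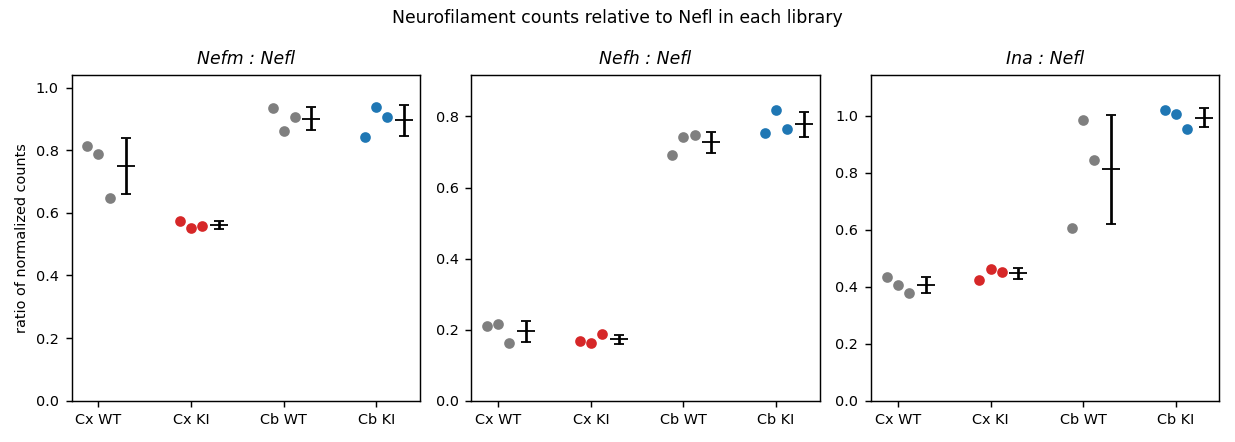
Ratio of the normalized counts of Nefm, Nefh and Ina to those of Nefl (vertical axes, from 0) in each library, with the mean and SD of each group of 3 as black bars. Nefm relative to Nefl was 0.646 to 0.814 in WT and 0.552 to 0.574 in SCA1 KI cortex, and all 3 ratios were higher in cerebellum than in cortex.

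Within groups, the mean log2 level of the 3 neurofilament chains varied mostly among the WT libraries. Cerebellum WT library 2 lay 0.34 above its group mean on the log2 scale and WT library 4 lay 0.28 below. Cortex WT library C lay 0.19 above and D lay 0.20 below, while the SCA1 KI libraries lay between −0.05 and 0.05 of their group means. In the SCA1 KI cortex the chains did not share an order, since Nefm was lowest and Nefh highest in library F and Nefl was lowest in library A. After each group's mean was taken off, Nefm (Pearson's r = 0.99), Nefh (0.94) and Nefl (0.92) correlated with the mean of the 3 over the 12 libraries, which is partly built in because each is part of that mean. The r of the other genes was 0.46 for Map1b, 0.41 for Map2, 0.40 for Tubb3, 0.23 for Ina, 0.18 for Map1a, 0.02 for Mapt and −0.14 for Stmn1. Outside the gene lists, the genes most like the triplet in these deviations were Ppm1e (r = 0.95), Csrnp3 (0.95), Magi3 (0.94), Acan (0.94) and Slc1a1 (0.94). Acan encodes aggrecan, a proteoglycan of perineuronal nets. By level over the 12 libraries the chains themselves had an r with their mean of 0.87 (Nefm), 0.51 (Nefh) and 0.41 (Nefl). The genes outside the lists most like that mean by level were Pfkfb3 (r = 0.92), Adssl1 (0.91), Nt5c2 (0.91), Ppip5k2 (0.90) and Timmdc1 (0.89). These are the highest of 15369 genes over 12 shared libraries and are given as a description.

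Some markers of neighbouring brain regions moved with the neurofilament genes in the cerebellum. Nefl, Nefm and Nefh were highest in WT library 2, then 6, then 4, and lower in SCA1 KI. The same order held for Slc17a6, the glutamate transporter of brainstem and thalamic neurons, with 6803, 2878 and 3911 normalized counts in WT libraries 2, 4 and 6 and 982 to 1310 in SCA1 KI (LFC −1.91). It held for Tcf7l2, a factor of thalamic neurons, with 2404, 1480 and 2051 in WT and 210 to 249 in SCA1 KI (LFC −3.09). It also held for Shox2, Tal1, Gata3, Pou4f1 and Sst, but not for all markers of these lists. In WT libraries 2, 4 and 6 Slc6a4 had 16.4, 86.7 and 3.49, Tph2 46.6, 134 and 16.3, and Otx2 593, 792 and 584. Npy had 326, 337 and 368. By list, 4 of 5 thalamus markers, 3 of 8 midbrain markers and 3 of 7 markers of forebrain interneurons (Sst, Vip and Npy) were lower in SCA1 KI cerebellum. The midbrain markers summed to 1787, 1788 and 1515 in WT libraries 2, 4 and 6, another order, and to 1008 to 1263 in SCA1 KI. The thalamus markers summed to 18930 to 20389 and 22291 to 23479, a sum carried by Calb2, which also marks granule cells.

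The 8 markers of cerebellar nuclei and brainstem, where neurofilament-rich neurons lie, summed to 8511, 3603 and 4613 normalized counts in the WT cerebellum and to 1713 to 2197 in SCA1 KI. Slc17a6 carried most of this sum and was the 1 lower gene of the 4 that could be tested. Slc6a5, of glycine neurons, had 1191, 708 and 690 in WT and 714 to 784 in SCA1 KI, so that without WT library 2 it was not above SCA1 KI. Hoxb3 and Hoxb5, genes of the hindbrain behind the cerebellum, had 133 and 197 in WT library 2, 0 to 3.66 in WT libraries 4 and 6 and 0 to 36.8 in SCA1 KI. The 6 oligodendrocyte markers summed to 266831, 178046 and 198047 in WT and to between 152414 and 152494 in SCA1 KI, in the same order as the neurofilament genes, though none of the 6 passed the test in either region. Among the 8 Purkinje cell markers 2 were lower in SCA1 KI cerebellum (Rgs8, LFC −0.62, and Gng13, LFC −0.84), with a median LFC of −0.30. They summed to 334390, 416907 and 397706 in WT libraries 2, 4 and 6 and to 294199 to 331034 in SCA1 KI. Granule cell markers summed to 130622, 185730 and 178295 in WT and 179796 to 185748 in SCA1 KI. WT library 2, highest for the neurofilament genes, was the lowest WT library in both sums. Among 6 pan-neuronal markers none was called. The part of these markers in the neurofilament values was not tested.

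In the cortex several marker sums were separated by genotype in the same direction as the neurofilament genes. Of the 6 pan-neuronal markers 3 were lower in SCA1 KI (Rbfox3, LFC −0.72; Snap25, −0.64; Syt1, −0.36), and their sum was 342255 to 358504 in WT and 252047 to 276770 in SCA1 KI, while Syp and Eno2, which all neurons use, had an LFC of 0.03 and 0.00. The markers of cortical excitatory neurons summed to 91393 to 94283 in WT and 63324 to 74149 in SCA1 KI (3 of 8 lower), those of forebrain interneurons to 36026 to 37985 and 25364 to 32902 (3 of 7 lower), and those of astrocytes to 255281 to 265122 and 123129 to 187669 (4 of 6 lower). On the Purkinje list, some of whose genes are also used in forebrain neurons, 4 of 8 were lower and 1 higher. Pcp2 and Ppp1r17 of this list had means of only 9.88 and 13.4 normalized counts in the WT cortex. On the striatum list 2 of 6 were lower (Ppp1r1b and Penk, LFC −1.21 each). The sums of nuclei and brainstem markers (1273 to 1556 in WT, 1393 to 2388 in SCA1 KI) and of oligodendrocyte markers (79162 to 135047 and 84709 to 98165) overlapped between the genotypes. Of 8 midbrain markers 3 were higher in SCA1 KI, with sums of 248 to 347 in WT and 843 to 1834 in SCA1 KI. The part of these lists in the cortical values was not tested.

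**Figure D4:**
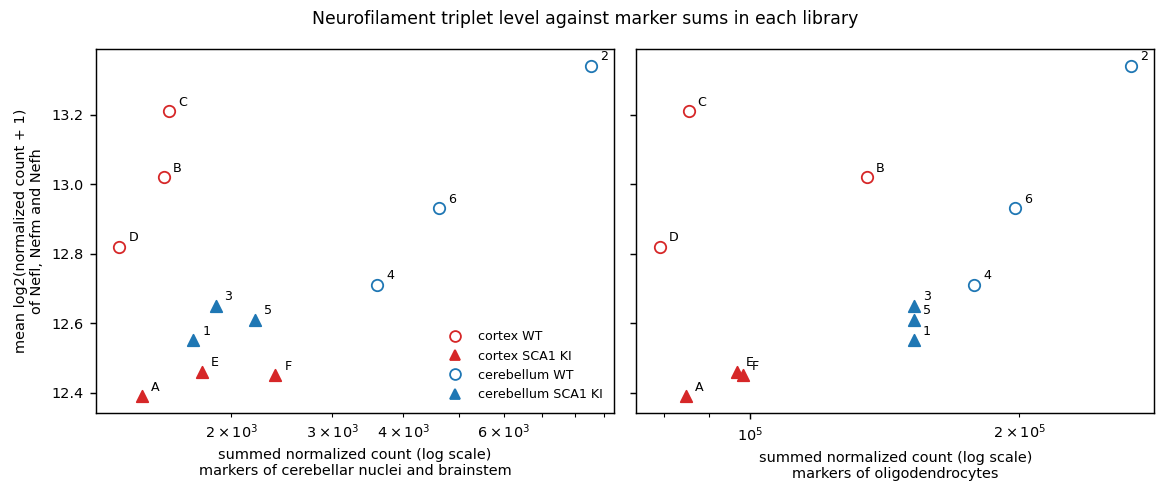
Mean log2(normalized count + 1) of Nefl, Nefm and Nefh (vertical axis) against the summed normalized counts of markers of cerebellar nuclei and brainstem (left) and of oligodendrocytes (right), both on log axes, 1 point per library with its letter or number. The cerebellum WT libraries 2, 6 and 4 fell in the same order on all axes, and the cortex WT libraries lay above the SCA1 KI libraries at similar or lower sums of nuclei and brainstem markers.

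Beyond these 10, 119 genes that build, bind, modify or travel on the cytoskeleton were listed, and 117 could be tested. In the SCA1 KI cortex 25 of them (21.4%) were downregulated and 9 (7.69%) upregulated, beside 10.8% and 4.82% of all tested genes. In the cerebellum 7 (5.98%) were downregulated, near the 4.44% of all tested genes, and 0 upregulated, beside 0.917% (6 at an unadjusted p under 0.05, 0 with edgeR and 1 with DESeq2). Their median LFC was −0.05 in cortex and −0.01 in cerebellum. By list, the cortex counts of lower and higher genes were 8 and 1 of 23 tau kinases and phosphatases, 8 and 2 of 34 other microtubule-associated proteins, 4 and 1 of 20 enzymes that modify or sever tubulin, 2 and 2 of 15 other tubulins, 2 and 1 of 16 transport motors, 1 and 1 of 6 other intermediate filament and linker genes, and 0 and 1 of 3 other stathmins. In the cerebellum the lower genes were 2 microtubule-associated proteins, 2 tubulin-modifying enzymes, 2 motors and 1 filament gene. Their number was 0 without library 1, 1 without library 3 or 5, 2 without library 6 and 3 without library 2, and 1 gene was upregulated without cortex library A or F.

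Among the genes that fell in the SCA1 KI cortex with the smallest p were Map6d1, a relative of the microtubule-stabilising protein STOP, from 3330 ± 220 to 1829 ± 59.2 normalized counts (SD, n = 3 each; LFC −0.86, limma adjusted p = 4.06e-06), and Ttl, the enzyme that restores tyrosine to alpha tubulin, from 5261 ± 165 to 3133 ± 199 (LFC −0.75, limma adjusted p = 8.35e-06). Ttll11, which adds glutamates to tubulin, fell by 0.63 on the log2 scale, the alpha tubulin Tuba4a by 0.45 and the kinesin light chain Klc2 by 0.43. Other tubulins rose: the LFC was 0.53 for the beta tubulin Tubb2a and 0.33 for the alpha tubulin Tuba1a. Tppp3, which promotes tubulin polymerisation, also rose (0.55), as did the MAP kinase Mapk3 (0.45), the dynein intermediate chain Dync1i1 (0.35) and Stmn2, a stathmin of growing and regenerating axons (0.36, limma adjusted p = 0.0160). Stmn2 did not pass without cortex library A (LFC 0.30, limma adjusted p = 0.0571) or B (LFC 0.29, limma adjusted p = 0.0640).

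Several close relatives of the 10 genes did not pass in either region. Stmn3 had an LFC of 0.12 in cortex and −0.03 in cerebellum, Stmn4 of 0.02 and −0.23, Tubb4a of 0.02 and 0.14, Map4 of 0.02 and 0.00, Map6 of −0.15 and −0.17, and the plus-end protein Mapre1 of 0.03 and 0.01. Peripherin (Prph), the intermediate filament of peripheral and some brainstem neurons, moved in opposite directions. It had 23.8, 14.4 and 22.8 normalized counts in WT and 102, 60.7 and 60.4 in SCA1 KI cortex (LFC 1.81, limma adjusted p = 0.0228), and 50.2, 8.55 and 23.3 in WT and 5.90, 3.43 and 4.84 in SCA1 KI cerebellum (LFC −2.02, limma adjusted p = 0.0306). Groups did not overlap in either region, at levels far under those of the neurofilament genes. Some markers of midbrain and thalamus moved the same opposite ways. Pou4f1 had an LFC of 5.76 in cortex and −3.59 in cerebellum, and Tal1 of 2.38 and −1.79. Shox2 had 0 normalized counts in all WT and 16.2 to 51.4 in SCA1 KI cortex libraries. In cerebellum it had 120 to 210 in WT and 0 to 9.68 in SCA1 KI. Other markers did not, with an LFC in cortex and cerebellum of −0.03 and −3.09 for Tcf7l2 and −0.25 and −0.43 for Lef1. For Calb2 these were 0.63 and 0.73, and for Otx2 0.38 and 0.07. By list, 3 of 8 midbrain and 1 of 5 thalamus markers were higher in SCA1 KI cortex, and 3 and 4 were lower in SCA1 KI cerebellum. The cerebellar WT libraries ordered Pou4f1, Tal1 and Shox2 as they ordered Prph, 2 highest and 4 lowest. The part of midbrain or thalamus neurons in the Prph values was not tested. Prph did not pass in cortex without library A (LFC 1.56, limma adjusted p = 0.0826) or C (LFC 1.59, limma adjusted p = 0.0898). Nor did it pass in cerebellum without library 1, 3, 5, 2 or 6 (LFC −2.17 to −1.44, limma adjusted p = 0.0701 to 0.119). The cerebellar call was also lost with the cerebellum fitted on its own (limma adjusted p = 0.0806) and without both libraries A and 2 (limma adjusted p = 0.0855).

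In the cerebellum the other genes that fell with the smallest p were Map7d2 (LFC −0.29), Agbl4, a deglutamylase of tubulin (LFC −0.83, 47.9 ± 3.78 against 87.8 ± 21.7 normalized counts in WT), Klc2 (LFC −0.25) and Tppp (LFC −0.32), with limma adjusted p between 0.0127 and 0.0198. Agbl4 did not pass with the cerebellum fitted on its own (LFC −0.83, limma adjusted p = 0.0581). In the cortex the LFC was −0.43 for Klc2 and −0.50 for Tppp, both called. With the dependence on length and GC taken out, the cerebellar LFC of Klc2 was −0.12 (limma adjusted p = 0.226) and those of Tppp (−0.25) and Map7d2 (−0.21) came inside the limit, as did Klc2 with the libraries centred on their median (−0.23). These calls were lost without library 1, 3 or 6 (Agbl4), 1, 3, 5 or 6 (Klc2), 1, 2 or 5 (Map7d2) and 1, 2, 3 or 5 (Tppp), at a limma adjusted p of 0.0507 to 0.0976, or for Map7d2 without library 2 at an LFC of −0.25 that rounds to the limit and lies inside it.

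**Figure D5:**
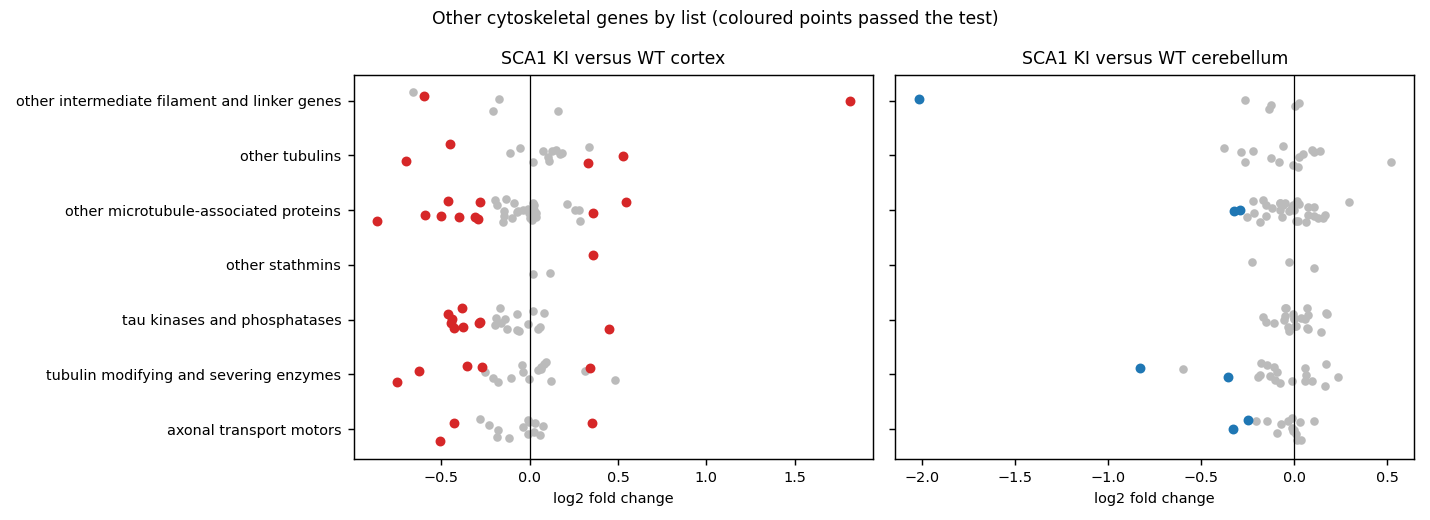
LFC of SCA1 KI over WT (horizontal axes, log2) for the other cytoskeletal genes by list, in cortex (left) and cerebellum (right); each point is 1 gene and coloured points passed the test. In cortex 25 genes were coloured on the lower and 9 on the higher side, in cerebellum 7 on the lower side, with Prph farthest out in both.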

How the data were processed

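Poly-adenylated RNA of whole cortex and cerebellum was sequenced in 12 libraries. The authors aligned paired reads to mm10 with STAR, counted them per gene with featureCounts and divided each library by 1 DESeq2 size factor; versions, annotation and strand setting are not given in the sources used here. The deposited signal per gene and library is this normalized count. In every library 100% of values came out as whole reads (tolerance 0.01), which edgeR 4.0.16 and DESeq2 1.42.0 used as alternatives.

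log2(normalized count + 1) was fitted with limma 3.58.1 (R 4.3.3, moderated variances following the mean level) over all 12 libraries with 4 group means. The minimum mean was 10, which left 15369 genes. Fold changes on this scale understate changes of low genes. Genes passed at a Benjamini-Hochberg adjusted p under 0.05 over all tested genes and an absolute LFC over 0.25, and differences between regions at an adjusted p under 0.05. Ratios were compared by exact permutation tests. The scripts were tested on simulated counts.

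The members, the lists of cytoskeletal genes and the marker lists were chosen with earlier results of these data known. Named were all members, up to 5 called genes of the cytoskeletal lists with the smallest p per direction and region, 9 textbook neighbours, the 5 genes most like the triplet by each measure, and Atxn1. Kif5a and Ttll5 of the cerebellar calls fell outside the rule. GENCODE vM21 (GRCm38) gave exons, matching 15009 of 15758 symbols, and RefSeq gave promoters. Alternatives covered pseudocounts, filters, scaling, tool, fold limit, region-wise fits, a length and GC trend (14639 genes) and single libraries; leaving out libraries A and 2 together was added after seeing the data. No library was a copy of another of its group, since the chi-square per gene between replicates was 7.43 or more, beyond counting noise. Pairs from different groups were not compared in this way.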

Additional observations from a re-analysis of the deposited data

Results flagged for a closer look

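Of the 117 other cytoskeletal genes tested, 15 (10 lower and 5 higher) differed between the regions in the effect of SCA1 KI, beside 8.15% of all tested genes. For 8 of those named above, which were named for a small p within a region, the effect of SCA1 KI differed between the regions by the test of that difference (cortical minus cerebellar LFC, limma adjusted p under 0.05). The difference was −0.79 for Map6d1 (adjusted p = 3.55e-04 from limma), −0.66 for Ttl (7.35e-04), −0.52 for Ttll11 (0.00626) and −0.39 for Tuba4a (0.00658), whose LFC was between −0.86 and −0.45 in cortex and between −0.11 and −0.06 in cerebellum. It was 0.43 for Tubb2a (limma adjusted p = 0.0187), 0.60 for Mapk3 (0.0178), 0.70 for Tppp3 (0.0276) and 3.83 for Prph (0.00500). Some markers of midbrain and thalamus, such as Pou4f1 (LFC 5.76 in cortex and −3.59 in cerebellum), moved in the same directions as Prph. Others did not, such as Lef1 (LFC −0.25 in cortex and −0.43 in cerebellum).

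Map6d1, Ttl, Ttll11, Tuba4a and Prph passed this test in each of the 12 fits that left out 1 library. Mapk3 did not pass without library 3 (0.57, limma adjusted p = 0.0512), Tubb2a without library 5 (0.40, limma adjusted p = 0.0551), and Tppp3 without library 1, 2, 3, 6 or C (0.57 to 0.69, limma adjusted p = 0.0572 to 0.0745). With libraries A and 2 both left out, Mapk3 (0.48, limma adjusted p = 0.0576) and Tppp3 (0.53, limma adjusted p = 0.0796) did not pass. None of the 10 neurofilament and microtubule genes of the report differed between the regions at this threshold.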

How the results depend on the processing

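Each gene named was refitted under every alternative. Of 920 refits for the 10 genes, 865 kept the call, 35 lost and 20 gained one. For the other cytoskeletal genes there were 1446 refits (1385, 57 and 4). No called value turned its sign. Some values that were never called did, such as that of Mapt in cortex (LFC −0.09, up to 0.05 among the alternatives). A limit of 1 on the absolute LFC left 0 of the 10 genes lower in cortex, 0 lower in cerebellum and 2 higher in the WT cortex than WT cerebellum, and among the other cytoskeletal genes 0 lower and 1 higher in cortex and 1 lower in cerebellum. Cerebellar counts of lower genes among the 10 were 2 with edgeR and 3 with DESeq2. The difference between regions gained 1 lower gene with edgeR, DESeq2, a minimum mean of 100 or median centring, and 1 higher gene with DESeq2. In WT mice 2 genes were lower in cortex than cerebellum with no limit on the fold or with the length and GC trend removed. Other cytoskeletal genes in cerebellum numbered 4 lower and 1 higher with each region fitted on its own, 3 lower and 2 higher with the length and GC trend removed, 3 lower without libraries A and 2, and 1 higher with DESeq2 or centring. The cause of these shifts was not tested.

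When 1 library was left out, the 10 genes counted 2 to 5 lower in cortex, 0 to 3 lower in cerebellum, 0 to 1 lower and 0 to 1 higher for the difference between regions and 1 to 2 lower in the WT cortex, and the other cytoskeletal genes 0 to 7 lower and 0 to 1 higher in cerebellum. No paired analysis was possible because the library columns carry letters and numbers of their own, not the replicate numbers of the labels. With 3 libraries per group the smallest p of a permutation test within a region is 0.1, and reads shared by Nefl and Nefm were not separated.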
